A study of Mus musculus with 20 samples.

Results

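The effect of the Tg-SwDI transgene on the hippocampal transcriptome was estimated as an average over both miR-34a genotypes. All 20 of 20 libraries entered the comparison, each from the left hippocampus of 1 female C57BL/6 mouse. The 10 Tg-SwDI mice were set against the 10 Non-Tg mice, with miR-34a genotype as the second factor, so that each arm held 5 miR-34a WT (miR34a+/+) and 5 miR-34a KO (miR34a-/-) mice. All 16107 genes that passed the filter on low counts, of 39056 in the table, were members of the comparison. Tg-SwDI mice express human APP with the Swedish, Dutch and Iowa mutations from the mouse Thy1 promoter, which is active in neurons, and the Non-Tg mice do not carry it. The miR-34a deletion was constitutive and in all cells, so it is shared by 5 mice of each arm and is not part of the contrast. The mice came from littermate cohorts, were tested in behavioural tasks at 12 months and had their brains examined at 13 months of age. The libraries hold all cells of the tissue together, so more cells of a type and more RNA per cell cannot be told apart in any result below.

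The transgene average is the mean of the transgene effects with and without miR-34a. A call for it can rest mainly on either genotype, so it does not by itself mark a change common to both. Changes common to both were read from genes called in each genotype. The mature miR-34a-5p that the KO mice lack is read from chr4:150068473-150068494 (+ strand, GRCm38.p6, RefSeq) and is shown with its seed, bases 2 to 8, in capitals, because it is the factor over which the effect was averaged.
mmu-miR-34a-5p: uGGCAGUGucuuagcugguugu

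Microglia are the resident macrophages of the brain. In mouse models with amyloid plaques they are known to pass into a disease-associated (DAM) state, in which TREM2 and its adaptor TYROBP signal from the cell surface, genes for lysosomal proteases, lipid handling and phagocytosis rise, and a set of homeostatic genes usually falls. Astrocytes near plaques are known to become reactive, with more of the filament protein GFAP. Gene lists for these states and for the other cell types of the hippocampus were used to describe the genes called.

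Total counts on genes lay between 19549622 and 21066868 per mouse. Mitochondrially encoded genes took 6.94 to 8.76% of counts in 19 mice and 14.6% in miR-34a KO Tg-SwDI mouse 8. The tissue piece also differed between mice. RNA of the choroid plexus, the epithelium that makes cerebrospinal fluid, was present in amounts that the groups do not share evenly. Ttr, its transthyretin gene, ranged from 29.8 to 3898 CPM over the Non-Tg arm and from 70.3 to 3554 CPM over the Tg-SwDI arm. CPM are counts scaled to the total of each library after its adjustment by the TMM factor. A score over 15 choroid plexus genes was above 0 in 3 of 5 WT and 0 of 5 KO mice of the Non-Tg arm, and in 4 of 5 mice of either genotype of the Tg-SwDI arm. The labelled tissue and sex fitted the defining genes, since Prox1, which marks dentate granule cells, lay between 94.5 and 152 CPM in every mouse and the Y-linked genes checked had at most 2 counts. The labels do not say that the mice of a group came from separate cages or litters, so p-values measure the spread between these mice.

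Thy1 and App served as the check of the transgene label. Thy1 encodes a neuronal surface glycoprotein (ENSMUSG00000032011.5, chr9:44043384-44048579, mm10), and its promoter drives the transgene. Its lowest, median and highest levels were 685, 725 and 769 CPM over the Non-Tg arm, against 1905, 2391 and 3318 CPM over the Tg-SwDI arm. The arms did not overlap, with an average log2 fold change of 1.78 (SE 0.047, FDR 5.02e-20, edgeR quasi-likelihood test with Benjamini-Hochberg adjustment, as for every FDR here). Within the Tg-SwDI arm Thy1 had 1905 to 2328 CPM in WT and 2454 to 3318 CPM in KO mice, without overlap. The log2 fold change was 1.59 in WT and 1.97 in KO mice, and their difference of 0.38 (SE 0.091) had an FDR of 0.0504. The part of this in other differences between genotypes was not tested. Reads of the endogenous gene and of Thy1 sequence in the transgene cannot be told apart in these counts. The same holds for reads of mouse App and any reads of human APP that aligned to it. The App level below is therefore not known to be that of the mouse gene alone. App (ENSMUSG00000022892.10, chr16:84949685-85173766) had 1592, 1690 and 1724 CPM in Non-Tg mice, against 1530, 1865 and 1958 CPM with the transgene. The arms overlapped through KO Tg-SwDI mouse 8, the lowest of the 20, and the average rose by a log2 of 0.12 (SE 0.038, FDR 0.0268), a call that was lost with library size alone, with no filter and with the replicate block. Of 15 genes for APP and its processing, Ncstn, which encodes nicastrin of the gamma-secretase (0.15, SE 0.035, FDR 0.00342), was called beside App, while Bace1 (-0.08, FDR 0.0976) and Aplp1 (0.03, FDR 0.772) were not called.

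On average over the genotypes, the transgene was accompanied by higher transcript levels of microglial, phagocytic, lysosomal and astrocyte reactivity genes. Small decreases of neuronal genes were also called for the average. Of the general neuron, presynaptic, glutamate and GABA lists, 0 members were called in each genotype. A gene was called at an FDR under 0.05, and 2766 of the 16107 genes tested were called (17.2%). Of these, 1828 were higher in Tg-SwDI mice (11.3% of genes tested) and 938 were lower (5.82%). Most changes were modest in either direction, and 1959 of the 2766 genes called had an absolute log2 fold change under 0.5. The median log2 fold change was 0.42 among genes called higher and -0.15 among genes called lower, 384 genes rose more than 2-fold and 0 fell by more than 2-fold, and the median over all genes tested was -0.01. The genes called lower had a median level of 70.3 CPM, those called higher 12.6 CPM. Scaling by library size alone, in place of TMM factors, gave 1576 higher and 1233 lower genes, which moved the share of higher genes among those called from 66.1 to 56.1%. With the choroid plexus score as a covariate, 1193 of the 1828 genes called higher and 183 of the 938 called lower were still called.

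In 498 of the genes called (3.09% of genes tested) all 10 mice of 1 arm lay above all 10 of the other. The transgenic arm was the upper one for 482 and the lower one for 16 of them, 494 were protein coding, and they lay on 20 chromosomes, in shares of 1.8 to 4.46% of the genes tested on each. Under the choroid plexus covariate 497 genes were called and without overlap. The overlap was read from the same CPM, which the covariate does not adjust, so only the call could change.

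The 2 genotypes were then read separately, since the WT and the KO contrast share no mice. In both contrasts 617 genes were called in the same direction (3.83% of genes tested), 592 higher and 25 lower, and 465 of the 617 also showed no overlap between arms. Of 635 genes called higher in WT mice, 627 had the same sign in KO mice (98.7%) and 592 were called there (93.2%). The median log2 fold change of these 635 genes was 0.76 in WT mice and 1.09 in KO mice. Of 2013 genes called higher in KO mice, 1761 had the same sign in WT mice (87.5%) and 592 were called there (29.4%). For decreases, 25 of 75 genes called lower in WT mice were called in KO mice (33.3%), and 25 of 1338 called lower in KO mice were called in WT mice (1.87%). Over all 16107 genes tested, 75 were called lower in WT mice and 1338 in KO mice. With fewer calls in WT mice, the shares of KO calls could reach at most 75 of 1338 for decreases and 635 of 2013 for increases. The KO counts moved with choroid plexus RNA, whose score was above 0 in 0 of 5 KO Non-Tg and in 4 of 5 KO Tg-SwDI mice. With the score as a covariate the KO contrast called 1236 genes in place of 3351 and the WT contrast 698 in place of 710, and the genes called in each genotype became 549 higher and 9 lower. The part of this tissue in the shares above was not tested.

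Across the 617 genes the log2 fold changes of the genotypes had a Pearson's r of 0.955 (Spearman's rho 0.943), and across all 16107 genes r was 0.72 (rho 0.324). These are correlations across genes, which share the same 20 libraries and are not independent replicates. The 617 genes were also chosen by calls of the same sign in both contrasts. That choice raises their correlation, so the r of 0.955 does not measure agreement between genotypes. The change was larger in KO mice for 535 of the 617 genes and larger in WT mice for 82. The test of the difference itself, the interaction of transgene and miR-34a, called 98 genes (0.608% of genes tested), 68 of which were called for the average and 44 of which were among the 617. This count depended on single mice and on the choroid plexus covariate, with 31 genes called for the interaction under the covariate and between 14 and 500 with 1 mouse left out.

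**Figure D1:**
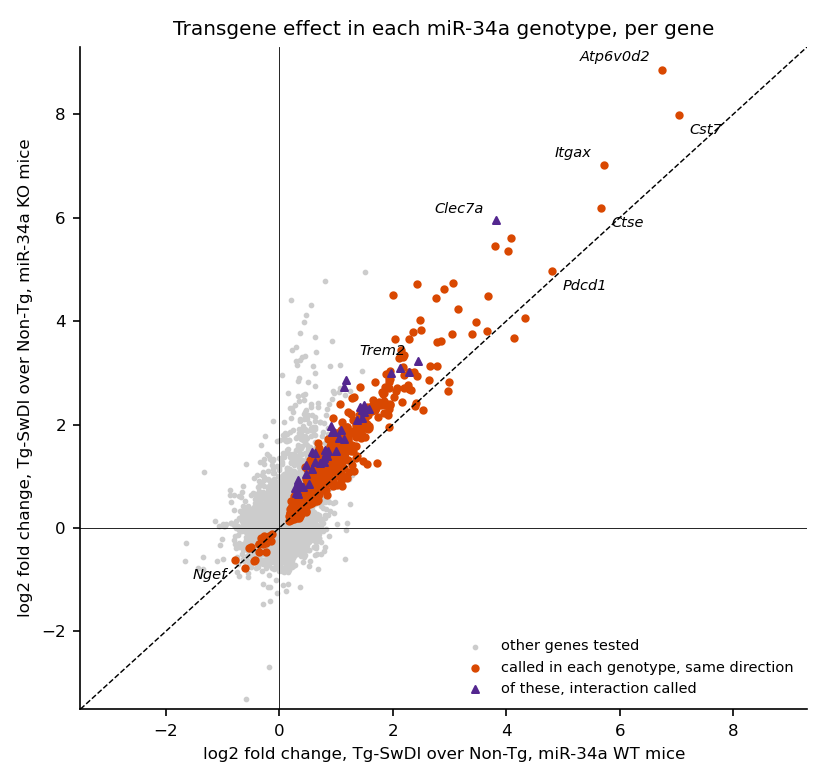
Log2 fold change of each of the 16107 genes, Tg-SwDI over Non-Tg, in miR-34a WT mice (x axis) and in miR-34a KO mice (y axis). Orange points are genes called in each genotype in the same direction, purple triangles those of them that were also called for the interaction, grey points all others, and the dashed line marks equal change. Most of the 617 genes called in each genotype lie above the dashed line, 535 with the larger change in KO mice, and Cst7, Itgax and Atp6v0d2 stand at the upper end.

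The largest increases were in genes for a vacuolar ATPase subunit, a protease, a protease inhibitor, surface receptors and chemokines, which had between 4 and 540 counts in all over the 10 Non-Tg mice. They are named by a fixed rule, the 10 largest log2 fold changes among called genes without overlap and with a mean of at least 1 CPM in the higher arm. Atp6v0d2 (ENSMUSG00000028238.6, chr4:19876841-19922605) encodes an isoform of the d subunit of the vacuolar ATPase that is used by macrophages and osteoclasts. It had 4 counts in all over the 10 Non-Tg mice and 1112 over the 10 Tg-SwDI mice, with 2.73, 5.01 and 9.14 CPM as lowest, median and highest in the latter. Its fitted log2 fold change of 7.81 (SE 0.29, FDR 7.89e-17) rests on those 4 counts.

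Cst7 (ENSMUSG00000068129.5, chr2:150570415-150578944) encodes cystatin F, an inhibitor of lysosomal cysteine proteases. It had 0.193, 0.418 and 1.09 CPM in Non-Tg mice and 63.0, 80.0 and 119 CPM in Tg-SwDI mice. The mean level was 186-fold higher in the Tg-SwDI arm, on 99 counts in Non-Tg and 17868 counts in Tg-SwDI mice, and the log2 fold change was 7.51 (SE 0.13, FDR 5.02e-20). Within the groups of 5 the Non-Tg means were 0.546 ± 0.324 (SD) CPM with and 0.402 ± 0.136 CPM without miR-34a, and the Tg-SwDI means 73.1 ± 6.91 and 104 ± 16.1 CPM. The change was called in each genotype, and the interaction was not (log2 difference 0.95, SE 0.43, FDR 0.261).

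Itgax (ENSMUSG00000030789.9, chr7:128129547-128150657), which encodes the integrin CD11c, had 0.145, 0.649 and 2.51 CPM in Non-Tg and 43.4, 56.2 and 77.6 CPM in Tg-SwDI mice. Its highest Non-Tg value belonged to WT Non-Tg mouse 2, which was also the highest Non-Tg mouse for Cst7, Clec7a, Ccl3 and Ccl6, and every Tg-SwDI mouse lay above it. The log2 fold change was 6.37 (SE 0.22, FDR 2.12e-13). Ctse, which encodes the aspartic protease cathepsin E (ENSMUSG00000004552.16, chr1:131638306-131675505), had 5 counts over the Non-Tg mice and 383 over the Tg-SwDI mice, and rose from at most 0.096 CPM in Non-Tg mice to between 0.982 and 3.29 CPM (5.93, SE 0.33, FDR 2.74e-13). Clec7a (ENSMUSG00000079293.11, chr6:129461591-129472779), the gene of the beta-glucan receptor dectin-1, had 0.431, 0.824 and 3.83 CPM in Non-Tg and 20.8, 28.6 and 48.4 CPM in Tg-SwDI mice (4.89, SE 0.20, FDR 1.97e-12).

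The other five of the 10 are genes of receptors and chemokines. Pdcd1 encodes the checkpoint receptor PD-1 (log2 fold change 4.88, SE 0.21), Cd200r4 a receptor of the CD200 receptor family (4.84, SE 0.35) and Hcar2 the receptor for niacin and ketone bodies (4.70, SE 0.25). Ccl3 (4.63, SE 0.23) and Ccl6 (4.08, SE 0.12) encode chemokines. All 10 were called in each genotype, with FDR values for the average between 5.02e-20 and 3.6e-11. Cd200r4 belongs to a family of close copies, and reads shared between them could be split by the counting.

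**Figure D2:**
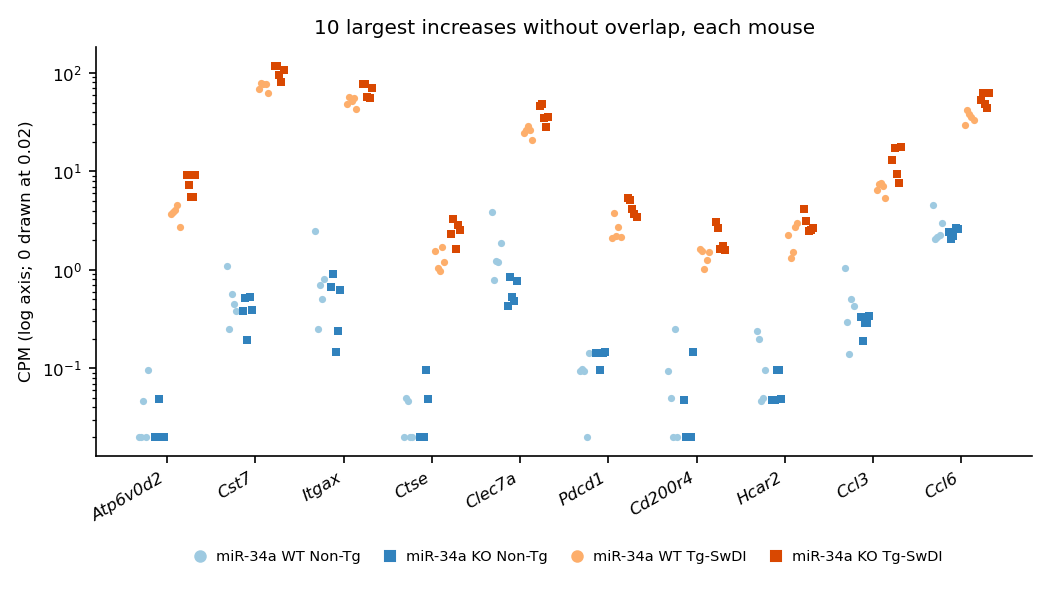
CPM of the 10 genes with the largest increases, 1 point per mouse on a log axis, with mice at 0 drawn at 0.02. Blue symbols are the 10 Non-Tg and orange symbols the 10 Tg-SwDI mice, circles miR-34a WT and squares KO. In each gene all 10 Tg-SwDI mice lie above all 10 Non-Tg mice, from 0 to 4.54 CPM in Non-Tg mice to 0.982 to 119 CPM in Tg-SwDI mice.

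The DAM genes rose as whole lists. Of 7 genes of the TREM2-independent first stage all 7 were called higher, and of 12 genes of the TREM2-dependent second stage all 12, against 11.3% of all genes tested. The DAM list and the lists below were chosen with results of these data known, so their counts describe and do not test. The median log2 fold change was 1.45 for the first stage and 2.14 for the second. Fth1 (0.19) of the first stage and Timp2 (0.14) of the second were called for the average and not in each genotype, and the other 17 of these 19 genes were called in each genotype and did not overlap between arms.

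Trem2 (ENSMUSG00000023992.14, chr17:48346401-48354147), the lipid-sensing receptor of microglia, had 14.3, 11.1, 11.9, 12.2 and 12.5 CPM in the WT mice of the Non-Tg arm and 10.7, 9.58, 10.1, 9.45 and 10.4 CPM in its KO mice. With the transgene it had 66.1, 71.7, 71.4, 71.3 and 58.1 CPM in WT mice and 105, 101, 89.4, 72.2 and 104 CPM in KO mice. Every Tg-SwDI mouse was above every Non-Tg mouse, and every KO Tg-SwDI mouse was above every WT Tg-SwDI mouse. The average log2 fold change was 2.84 (SE 0.066, FDR 4.31e-20). Tyrobp, the adaptor through which TREM2 signals, rose by 2.66 (SE 0.071), from 9.88 to 17.3 CPM in Non-Tg mice to 56.8 to 93.9 CPM in Tg-SwDI mice.

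Lyz2, the macrophage lysozyme, rose by 2.65 and B2m, the light chain of MHC class I, by 1.45. Apoe, the main lipid carrier of brain, rose from 1258 to 1519 CPM to 1714 to 2500 CPM (0.67, SE 0.043, FDR 3.74e-12). Among second-stage genes, Lilrb4a, an inhibitory receptor gene with a close paralog, rose by 3.73, Cd9, a tetraspanin, by 1.45, Csf1, the growth factor of microglia, by 1.04, Lpl, lipoprotein lipase, by 0.79 and Axl, a receptor for apoptotic cells, by 0.69.

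A further 20 genes reported around plaques in other mouse models were also mostly higher, with 19 called, 16 of them in each genotype. Gpnmb, a lysosome-linked glycoprotein, rose by 3.40 (SE 0.093), from 6.51 to 8.73 CPM in Non-Tg mice to 55.2 to 112 CPM. Spp1, osteopontin, rose by 3.19 (SE 0.22), Cd68, a lysosomal membrane protein of phagocytes, by 2.62 (SE 0.092), Cybb, the catalytic subunit of the phagocyte oxidase, by 2.37 (SE 0.20) and Cd84, a SLAM family receptor, by 2.17 (SE 0.075). Hif1a, a transcription factor of low oxygen, rose by only 0.36 (SE 0.032) and still without overlap (86.2 to 96.2 against 108 to 135 CPM). Tmem163, a zinc transporter, had a log2 fold change of 0.19 and an FDR of 0.0536.

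Homeostatic microglia genes were higher, not lower, in these whole-tissue libraries. All 15 were called higher, 14 in each genotype and 13 without overlap between arms, with a median log2 fold change of 0.86. Every Tg-SwDI mouse stood above every Non-Tg mouse in the mean level of the list. Selplg, the ligand of P-selectin, rose by 1.03 (SE 0.052), from 32.9 to 45.9 CPM to 56.3 to 92.8 CPM. Csf1r, the receptor on which microglia depend, rose by 1.11 and the fractalkine receptor gene Cx3cr1 by 1.06. The increases within the list were uneven, since P2ry12, an ADP receptor (0.58, SE 0.046), Tmem119 (0.58, SE 0.061) and Sall1, a transcription factor of microglial identity (0.52, SE 0.048), rose less than Fcrls (1.74, SE 0.093).

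Of 12 pan-myeloid genes 11 were called higher, all 11 in each genotype and without overlap, with a median of 1.42. Cd53, a tetraspanin of leukocytes (1.55, SE 0.070), and Inpp5d, which encodes the lipid phosphatase SHIP1 (1.14, SE 0.066), had the smallest p. Ptprc, the leukocyte antigen CD45, rose by 2.08, and Spi1, which encodes the myeloid transcription factor PU.1, by 1.29. Coro1a, an actin regulator, had a log2 fold change of -0.02 (FDR 0.787).

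Few markers of other immune cells were called. Of 9 genes of border-associated macrophages Folr2, a folate receptor, was called (0.95, SE 0.24, FDR 0.0056) and was not called under the choroid plexus covariate, while Stab1, a scavenger receptor, was not called (0.10, FDR 0.626). Of 16 lymphocyte and granulocyte genes 1 passed the filter, Trac, a T cell receptor constant gene (0.45, FDR 0.097), and the other 15 had at most 15 counts in any mouse. Cd3e had 25 counts over the Non-Tg mice and 44 over the Tg-SwDI mice, and Cd8a 19 and 46. In the fit without a filter Cd8a (1.30, SE 0.444, FDR 0.0567) and Cd3g (1.39, SE 0.484, FDR 0.0634) lay just over the threshold. Cd3e (0.72, SE 0.383, FDR 0.298) and Gzmk (-0.68, SE 0.295, FDR 0.168) were not called there either. Proliferation genes were mixed, with 6 of 16 called higher, among them Cdk1, the mitotic kinase (1.63, SE 0.27), and Mcm3, a replication helicase subunit (0.65, SE 0.094), while Pcna, the replication clamp, was not called (0.04).

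PU.1 binds a purine-rich motif, so the promoters of genes called were searched for the letters GAGGAAGT on both strands, from 250 bases before to 50 after the RefSeq start. A promoter entry was found for 12050 of the genes tested. The letters were present in 3.36% of all tested promoters, in 6.06% of those of genes called higher, in 2.23% of those of genes called lower and in 44 of 381 (11.5%) of those of genes called higher without overlap. Of the DAM lists 0 of 5 and 0 of 10 promoters held them, and of the pan-myeloid list 2 of 10, Cd53 and Inpp5d. The Cd53 promoter (chr3:106790100-106790399, - strand, GRCm38.p6, RefSeq) is shown because it joins the motif to one of the strongest myeloid calls, with the match, on the reverse strand, in capitals. A match of letters is a description and not a site of binding.
Cd53: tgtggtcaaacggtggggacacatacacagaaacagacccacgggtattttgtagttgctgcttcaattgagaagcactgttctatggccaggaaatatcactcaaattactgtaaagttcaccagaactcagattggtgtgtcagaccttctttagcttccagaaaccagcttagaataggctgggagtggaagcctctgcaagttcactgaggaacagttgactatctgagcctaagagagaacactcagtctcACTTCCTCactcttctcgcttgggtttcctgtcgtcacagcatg

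Receptors and effectors of innate immunity rose with the microglial genes. Of 14 complement genes tested 11 were called higher, 9 in each genotype. The 3 chains of C1q, the initiator of the classical pathway, rose together, C1qa by 1.99 (SE 0.10), C1qb by 1.87 (SE 0.078) and C1qc by 1.94 (SE 0.067, from 40.4 to 65.3 CPM to 137 to 246 CPM). C3 rose by 1.73, C4b by 1.78 and C3ar1, the receptor of the C3a fragment, by 2.10 (SE 0.090). C1ra was not called (0.35, FDR 0.0535), and Cfb did not pass the filter.

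All 5 genes of Fc gamma receptors and their signalling chain were called higher, with Fcgr2b, the inhibitory receptor, at 2.52 (SE 0.10), Fcgr3 at 1.65 (SE 0.071) and Fcer1g at 1.88 (SE 0.087). Of 13 Toll-like receptor pathway genes 11 were called higher, with a median of 1.35. Tlr2, which senses bacterial lipoproteins, rose by 2.70 (SE 0.15), its co-receptor Cd14 by 2.39 (SE 0.12) and Tlr13 by 1.76 (SE 0.10). Tlr4 rose by 0.61 (SE 0.12, FDR 0.000531), and Ly96, its partner MD-2, was not called (0.29, FDR 0.295).

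Of 15 cytokine and growth factor genes 11 passed the filter and 8 were called higher. Tgfb1 rose by 1.49 (SE 0.082), from 5.66 to 10.2 CPM to 15.7 to 29.6 CPM, and Igf1 by 0.92 (SE 0.071), whereas Il34, the neuronal ligand of CSF1R, was not called (-0.08, FDR 0.184). The classical inflammatory cytokines stayed below the filter, with Tnf at 16 counts over the Non-Tg and 36 over the Tg-SwDI mice, Il1b at 49 and 78 and Il6 at 10 and 22. They were not tested for that reason. In the fit without a filter Tnf (1.15, SE 0.464, FDR 0.131), Il1b (0.69, SE 0.318, FDR 0.209) and Il6 (1.17, SE 0.606, FDR 0.281) were not called. Il1rn, the remaining listed gene below the filter, was called higher in that fit (FDR 2.91e-05). This call rests on few counts, since the gene did not pass the filter. The receptors of TGF-beta rose with the ligand, Tgfbr2 by 1.24 (SE 0.075) and Tgfbr1 by 0.91 (SE 0.067), and 5 of 15 genes of this pathway were called in all. Smad3, its signal transducer, was not called (-0.07, FDR 0.221).

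Of 12 chemokine genes 10 were called higher, 5 of them in each genotype. Beside Ccl3 and Ccl6, Ccl4 rose by 3.25 (SE 0.35) and Cxcl16 by 1.40 (SE 0.19). Cx3cl1, the fractalkine of neurons, was not called (-0.11, FDR 0.105). Of 8 checkpoint genes 6 were called, with Lag3 at 2.49 (SE 0.13), Havcr2, which encodes TIM-3, at 1.46 (SE 0.088) and Cd274, which encodes PD-L1, at 1.19 (SE 0.14). Cd47, the signal that restrains phagocytosis, was not called (-0.01).

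Antigen presentation genes split by class. Of 7 MHC class II genes 6 were called higher, 5 in each genotype and without overlap between arms. Cd74, the invariant chain, rose by 3.25 (SE 0.29), from 2.61 to 14.2 CPM to 40.0 to 144 CPM. H2-Aa rose by 2.86, H2-Ab1 by 2.74, H2-DMb1 by 1.38 (SE 0.13) and H2-DMa by 0.66 (SE 0.059), and Ciita, the transactivator of the class, was not called (0.33, FDR 0.13). Of 14 MHC class I genes 12 were called for the average but 2, B2m and the immunoproteasome subunit gene Psmb8 (1.17, SE 0.13), in each genotype. The class I list had a median log2 fold change of 0.41 in WT and 1.34 in KO mice, and its interaction was called for 1 of the 14 genes. H2 genes have close copies, and their single values are uncertain.

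Most genes of the interferon-stimulated list were called for the average and none of them in each genotype. Of 24 genes 20 were called higher, but 0 were called in each genotype, 0 were without overlap and 0 were called for the interaction. The median log2 fold change was 0.33 in WT and 1.77 in KO mice. Interferon-inducible genes outside this list were called in each genotype, among them B2m and Psmb8 above and Ifi204, a nucleic acid sensor of a family of close copies, chosen with its values known (1.70, FDR 0.0221 in WT and 2.83, FDR 2.77e-05 in KO mice, without overlap between arms). Ifih1, the RNA sensor MDA5, had 5.26 to 8.59 CPM in Non-Tg and 7.27 to 15.2 CPM in Tg-SwDI mice (0.63, SE 0.11, FDR 0.000255), with 0.20 in WT and 1.06 in KO mice. Zbp1, a sensor of nucleic acids, rose by 1.89 (SE 0.34) and Ifit3 was not called (0.81, FDR 0.0604). With the choroid plexus covariate 14 of the 24 were called, and without KO Tg-SwDI mouse 8, the lowest KO Tg-SwDI mouse for this list, 23 were called. The part of either in the result was not tested.

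The interferon-stimulated response element, searched on both strands as GAAA, any 2 bases and GAAA again, was present in 12 of 18 promoters of this list (66.7%), in 3.68% of all tested promoters, in 6.69% of those of genes called higher and in 3.63% of those called lower. The Ifih1 promoter (chr2:62646206-62646505, - strand, GRCm38.p6, RefSeq) is shown with its match in capitals, as the member with the smallest p.
Ifih1: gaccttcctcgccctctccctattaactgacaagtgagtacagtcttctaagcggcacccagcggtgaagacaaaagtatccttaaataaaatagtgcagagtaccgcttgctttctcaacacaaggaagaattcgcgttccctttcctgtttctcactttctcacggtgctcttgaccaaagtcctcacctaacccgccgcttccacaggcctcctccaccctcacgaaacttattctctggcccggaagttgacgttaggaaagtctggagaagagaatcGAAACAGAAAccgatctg

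Most members of the cathepsin list and of the other lysosomal list were called higher, while most genes of the proton pump were not called. Of 17 cathepsin and cystatin genes 14 were called higher, 12 in each genotype and without overlap. Ctsd, the main aspartic protease of lysosomes, rose from 212 to 319 CPM to 631 to 1038 CPM (1.79, SE 0.063, FDR 7.35e-16), Ctss by 1.80 (SE 0.10), Ctsz by 1.75 (SE 0.078), Ctsl by 1.11 (SE 0.053) and Ctsa by 0.69 (SE 0.033). Ctsf was not called (0.03, FDR 0.724).

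Of 30 other lysosomal genes 23 were called higher, 15 in each genotype, with a median of 0.35. Grn, which encodes progranulin (1.14, SE 0.047), Gusb, beta-glucuronidase (1.25, SE 0.053), Hexa (1.10, SE 0.052) and Man2b1, alpha-mannosidase (0.99, SE 0.050), rose most clearly, and Psap, the precursor of the saposins, was not called (0.09, FDR 0.0639). Of 19 vacuolar ATPase genes 3 were called higher and 2 lower, where 11.3% and 5.82% of all genes tested were. Apart from Atp6v0d2 these were Atp6v0e (0.35, SE 0.068) and Atp6v0a2 (0.13), and the 2 lower ones, Atp6v1b2 (-0.19) and Atp6v1h (-0.15), encode subunits of the catalytic domain. Atp6v0a1, the neuronal a subunit, was not called (-0.03).

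The E-box TCACGTG of the CLEAR element, which the regulator TFEB is known to bind in lysosomal gene promoters, was found in 6.46% of tested promoters, in 3 of 12 promoters of the cathepsin list and in 8 of 25 of the other lysosomal list (32.0%). Its share was 5.85% among genes called higher and 6.14% among genes called lower. The Ctsd promoter (chr7:142387778-142388077, - strand, GRCm38.p6, RefSeq) held 3 matches, a pair of them overlapping on opposite strands, and is shown with them in capitals.
Ctsd: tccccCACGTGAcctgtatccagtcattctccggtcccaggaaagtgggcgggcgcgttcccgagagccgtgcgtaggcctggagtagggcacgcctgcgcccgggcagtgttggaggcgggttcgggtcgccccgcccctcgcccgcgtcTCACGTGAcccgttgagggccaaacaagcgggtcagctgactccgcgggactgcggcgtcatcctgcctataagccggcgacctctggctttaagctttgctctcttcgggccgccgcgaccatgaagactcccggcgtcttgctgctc

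Lipid genes rose in part. Of 19 lipid handling genes 11 were called higher, 7 in each genotype. Ch25h, which makes 25-hydroxycholesterol, rose by 2.66 (SE 0.20), Npc2, a lysosomal cholesterol carrier, by 0.86 (SE 0.072) and Plin2, the coat of lipid droplets, by 0.74 (SE 0.077). Lrp1, a receptor of lipoproteins, was not called (0.03, FDR 0.627). Of 20 cholesterol synthesis genes 6 were called higher and 0 in each genotype, with Msmo1 (0.23, SE 0.050) and Nsdhl (0.23, SE 0.061) at the smallest p. Srebf2, their regulator, was not called (0.02), and 2 members were called under the choroid plexus covariate.

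Of 17 genes near Alzheimer risk loci 10 were called higher, 8 of them in each genotype and without overlap. The 8 were Trem2, Spi1, Abi3 (1.25, SE 0.11), Inpp5d, Cd33 (0.96, SE 0.068), Plcg2 (0.75, SE 0.074), Apoe and Clu, the astrocyte chaperone clusterin (0.49, SE 0.044), of which all but Apoe and Clu are mainly genes of microglia in brain. Sorl1 (-0.10, FDR 0.0831), Ptk2b (-0.05) and Fermt2 (0.05), which neurons or other cells express, were not called.

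Iron and metallothionein genes rose in 7 of 12 members. Slc11a1, the phagosomal metal transporter NRAMP1, rose by 2.49 (SE 0.089), Hmox1, heme oxygenase, by 0.87 (SE 0.075), Mt2 by 0.85 (SE 0.088) and Mt1 by 0.76 (SE 0.10), and Mt3, the neuronal form, was not called (0.34, FDR 0.127). Of 18 genes of protein folding stress 3 were called higher and 2 lower. Atf3, a stress transcription factor, rose by 1.59 (SE 0.13) and without overlap, Sdf2l1 rose by 0.68 (SE 0.11), and the heat shock gene Hspa8 (-0.01) was not called.

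**Figure D3:**
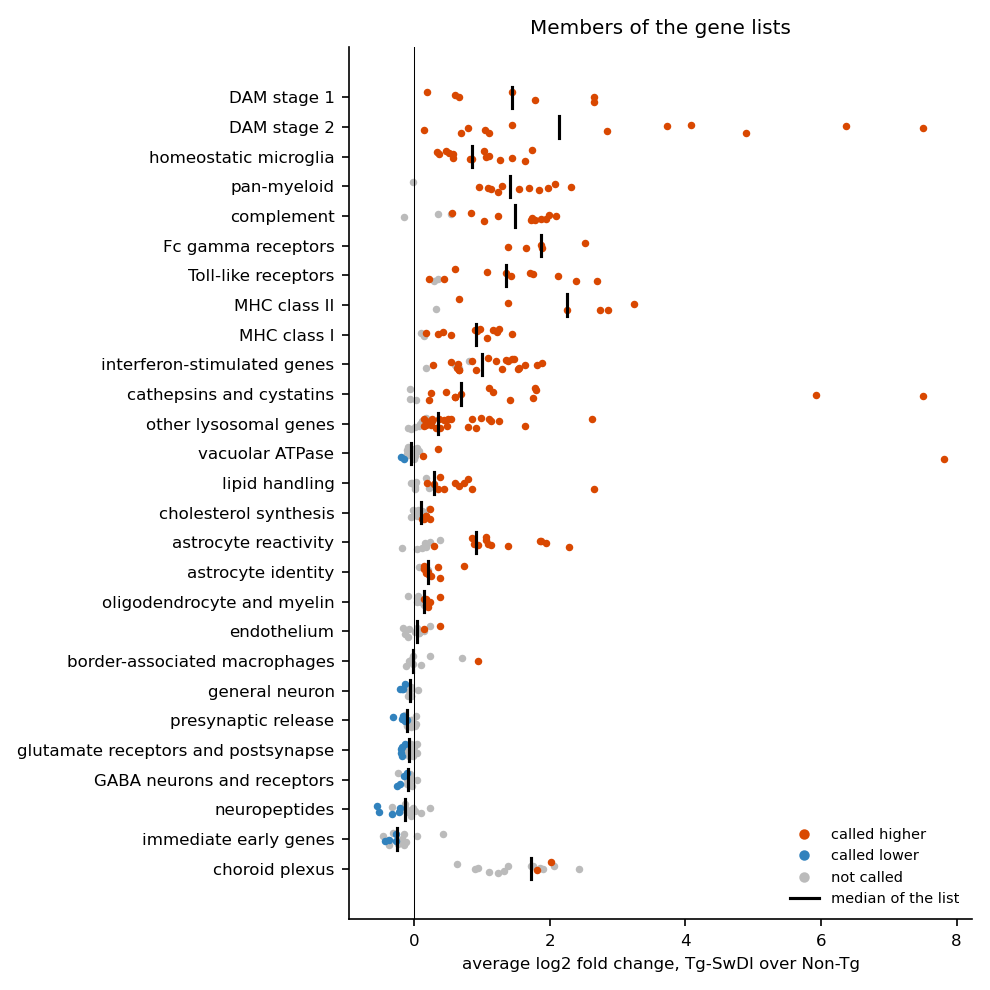
Average log2 fold change, Tg-SwDI over Non-Tg, of each tested member of 27 gene lists, 1 point per gene, in orange if called higher, blue if called lower and grey if not called, with a black bar at the median of each list. Medians lie between 1.45 and 2.14 in the DAM lists, at 0.86 in homeostatic microglia and between -0.25 and -0.06 in the neuronal and immediate early lists.

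Astrocytes showed a rise of reactivity genes and a smaller one of identity genes. Of 20 reactivity genes 13 were called higher, 10 in each genotype, with a median of 0.92. Gfap, the astrocyte filament protein, rose from 335 to 497 CPM to 1042 to 2252 CPM (1.94, SE 0.090, FDR 1.94e-12). Serpina3n, a secreted protease inhibitor, rose by 1.86 (SE 0.093), from 46.8 to 56.2 CPM to 135 to 340 CPM, and Osmr, the oncostatin M receptor, by 1.39 (SE 0.092). Osm, its ligand, rose by 2.38 (SE 0.30). Vim, vimentin, rose by 1.09 (SE 0.11), and Cp, ceruloplasmin, was not called (0.18, FDR 0.553). Of 8 Serpina3 genes, which are close copies, 3 passed the filter, and Serpina3i rose by 3.77 (SE 0.38) while Serpina3g did not pass the test (0.06).

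Of 12 astrocyte identity genes 10 were called higher, 4 in each genotype, with a median of 0.20. Aqp4, the water channel of astrocyte endfeet, rose by 0.74 (SE 0.085, 162 to 210 against 209 to 457 CPM), S100b by 0.35 (SE 0.047) and Aldoc by 0.25 (SE 0.038, 791 to 889 against 917 to 1109 CPM). The glutamate transporter genes Slc1a3 (0.20, SE 0.039) and Slc1a2 (0.15, SE 0.039) rose less, and Ndrg2 was not called (0.08, FDR 0.204). With the choroid plexus covariate 7 of the 12 were called.

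Other glial and vascular lists are read against the 17.2% of all genes that were called in either direction. Of 12 oligodendrocyte genes 6 were called higher, with 1, the tight junction gene Cldn11 (0.38, SE 0.052), in each genotype and Mag (0.24, SE 0.048) called for the average. Of 10 precursor genes 4 were called higher, with Ptprz1 (0.18, SE 0.039) and Bcas1 (0.18, SE 0.046) first, and Olig1 (0.07) was not called. Of 13 endothelial genes 2 were called, Mfsd2a, a lipid transporter of the blood-brain barrier (0.38, SE 0.087), and Flt1 (0.15, SE 0.051), and Slco1a4 (0.01) was not. Of 10 mural cell genes Abcc9, a subunit of pericyte potassium channels, was called in each genotype and without overlap (0.30, SE 0.051), and Rgs5 (0.05) was not. Of 16 collagen and matrix genes Col5a3 was called (0.54, SE 0.14), and Fn1 (-0.07) was not. The endothelial count of 2 in 13 was thus near the 17.2% over all genes, and the mural and matrix counts were below it. With so few genes per list, these counts cannot be told apart from that share. No gene of 4 for red blood cells was called, with Hbb-bs at 0.56 (FDR 0.534).

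Decreases were small and mostly without separation of the arms. The largest was in Ngef (ENSMUSG00000026259.14, chr1:87476834-87573870), which encodes ephexin-1, a guanine nucleotide exchange factor downstream of Eph receptors in neurons. Ngef had 105, 125, 115, 110.3 and 101 CPM in the WT mice of the Non-Tg arm and 116, 102, 112, 108 and 112 CPM in its KO mice. With the transgene it had 59.0, 59.8, 67.6, 70.2 and 68.2 CPM in WT mice and 74.9, 66.9, 74.3, 78.0 and 64.5 CPM in KO mice. All 10 Tg-SwDI mice were below all 10 Non-Tg mice, with a log2 fold change of -0.70 (SE 0.045, FDR 4.96e-12), -0.78 in WT and -0.62 in KO mice.

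Adcyap1 (ENSMUSG00000024256.6, chr17:93199017-93206537), the gene of the neuropeptide PACAP, had 7.42, 8.62 and 11.7 CPM as lowest, median and highest in Non-Tg mice and 4.75, 6.16 and 6.91 CPM in Tg-SwDI mice (-0.54, SE 0.080, FDR 1.25e-05). Ndst4 (ENSMUSG00000027971.16, chr3:125404076-125728899), an enzyme of heparan sulfate synthesis, had 38.4, 44.7 and 48.4 CPM against 22.6, 32.4 and 36.4 CPM (-0.52, SE 0.077, FDR 2.52e-05). Stac (ENSMUSG00000032502.8, chr9:111561437-111690348), an adaptor of voltage-gated calcium channels, had 3.43, 3.97 and 4.69 CPM against 2.55, 2.89 and 3.38 CPM (-0.46, SE 0.085, FDR 0.00027). The highest Tg-SwDI mouse for each of these genes lay only just below the lowest Non-Tg mouse.

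Cadps2 (ENSMUSG00000017978.18, chr6:23262773-23839421), which primes dense-core vesicles for release, had 84.5, 91.0 and 100.2 CPM against 60.8, 74.6 and 82.2 CPM (-0.35, SE 0.043, FDR 7.77e-07). The next in size were Igfbp4, an IGF-binding protein (-0.32, SE 0.043), Dusp4, a phosphatase of MAP kinases (-0.29, SE 0.050), Kcnk12, a potassium channel (-0.29, SE 0.053), and Astn2, a neuronal adhesion protein (-0.26, SE 0.045). Of these 9 genes, 8 were called lower in each genotype, and Kcnk12 was called in KO mice and not in WT mice. The 16 genes lower without overlap stand beside 938 genes called lower, of which 910 had a log2 fold change between -0.5 and 0.

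**Figure D4:**
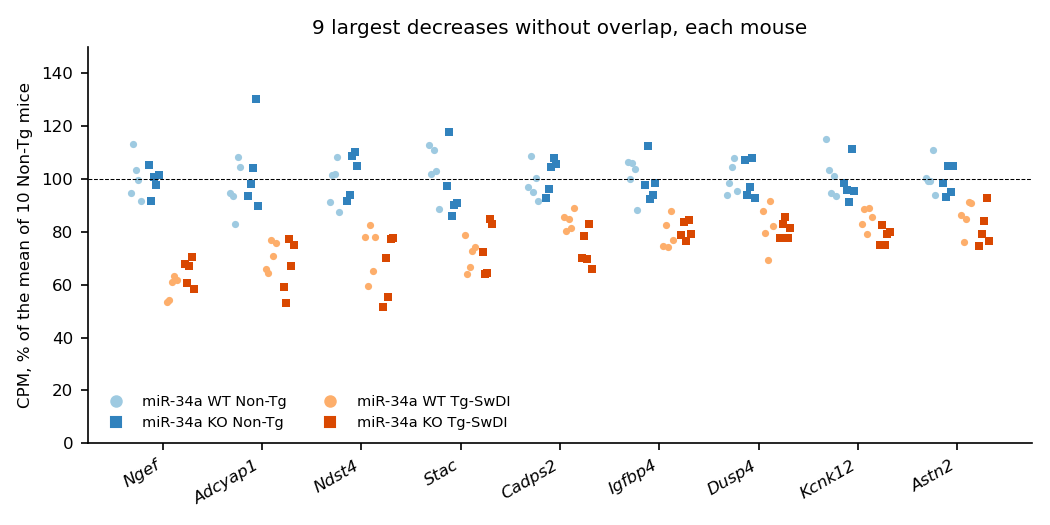
Level of the 9 genes with the largest decreases without overlap, 1 point per mouse, as percent of the mean of the 10 Non-Tg mice of that gene, with the dashed line at 100. Blue symbols are Non-Tg and orange symbols Tg-SwDI mice, circles miR-34a WT and squares KO. For Ngef the 10 Tg-SwDI mice lie between 59.0 and 78.0 CPM and the 10 Non-Tg mice between 101 and 125 CPM, and the gap between arms is narrower in the other genes.

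Neuronal lists leaned lower, with most members not called. Of 12 general neuron genes 4 were called lower and 0 higher, with Gap43, a growth cone protein (-0.20, SE 0.041), and Syt1, the calcium sensor of release (-0.18, SE 0.038), first, and Snap25 not called (-0.09, FDR 0.407). Of 19 presynaptic genes 6 were called lower, Unc13a (-0.16, SE 0.035) and Sv2b (-0.17, SE 0.040) at the smallest p, and Cplx2 was not called (0.03). Of 22 glutamate receptor and postsynaptic genes 5 were called lower, among them Grm3 (-0.18, SE 0.039) and Grm5 (-0.17, SE 0.042), and Camk2a had a log2 fold change of 0.00. Of 16 GABA genes 4 were called lower, and Gabbr1 was not called (-0.05). The background share of genes called lower was 5.82%.

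These calls were common to both genotypes in 0 of the 69 genes of these 4 lists, and they moved with technical measures. With the choroid plexus covariate 2 general neuron, 1 presynaptic, 1 glutamate and 0 GABA genes were called, and without KO Tg-SwDI mouse 8 the counts were 4, 10, 8 and 6. That mouse had the 14.6% of mitochondrial counts. The part of either measure in the decreases was not tested.

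Of 16 neuropeptide genes 5 were called lower, Adcyap1, Nts, neurotensin (-0.51, SE 0.12), Vgf, a precursor of secreted peptides (-0.33, SE 0.067), Bdnf (-0.22, SE 0.063) and Scg2 (-0.21, SE 0.068), and 3 were called under the choroid plexus covariate. Chgb was not called (-0.13, FDR 0.071). Of 16 markers of the dentate gyrus and CA fields 1 was called, Fibcd1, a marker of CA1 (-0.23, SE 0.050), and Wfs1, another, had a log2 fold change of 0.00. Of 16 immediate early genes 4 were called lower, Fosl2 (-0.26, SE 0.062), Egr4 (-0.43, SE 0.12), Nr4a2 (-0.37, SE 0.10) and Nr4a3 (-0.26, SE 0.074), while Egr1 was not (-0.37, FDR 0.234). The median of this list was -0.51 in WT and 0.09 in KO mice, and 0 members were called in each genotype or for the interaction.

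Energy and clock genes are given by their counts. Of 13 mitochondrially encoded genes 1 was called higher, mt-Nd3 (0.16, SE 0.051), and mt-Co1 was not (0.18, FDR 0.0808). Of 22 nuclear genes of the respiratory chain 5 were called lower, Atp5a1 (-0.12, SE 0.034) at the smallest p, 1 was called higher, Ndufa1 (0.22, SE 0.063), Cox4i1 was not called (-0.03), and 0 were called under the choroid plexus covariate. The 5 lower genes are a larger share of the 22 than the 5.82% over all genes. Of 16 clock genes 1 rose, Bhlhe41, a transcriptional repressor that myeloid cells also express (0.36, SE 0.037, without overlap), and 1 fell, Cry2 (-0.24, SE 0.040), each in both genotypes, and Tef was not called (-0.02).

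Tissue outside the hippocampus was followed by its markers. Of 15 choroid plexus genes 2 were called for the average, Prlr (1.82, SE 0.54, FDR 0.029) and Cldn2 (2.02, SE 0.65, FDR 0.0438), and Ttr was not (2.43, SE 0.82, FDR 0.0527). Arms overlapped in every one of the 15 genes, and the median was 0.35 in WT and 3.0 in KO mice. Of 12 thalamic and striatal genes 3 were called higher and 2 lower, with Prkcd (0.36, SE 0.10) and Ppp1r1b (0.33, SE 0.092) first and Rora not called (-0.02), and 0 were called under the covariate.

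**Figure D5:**
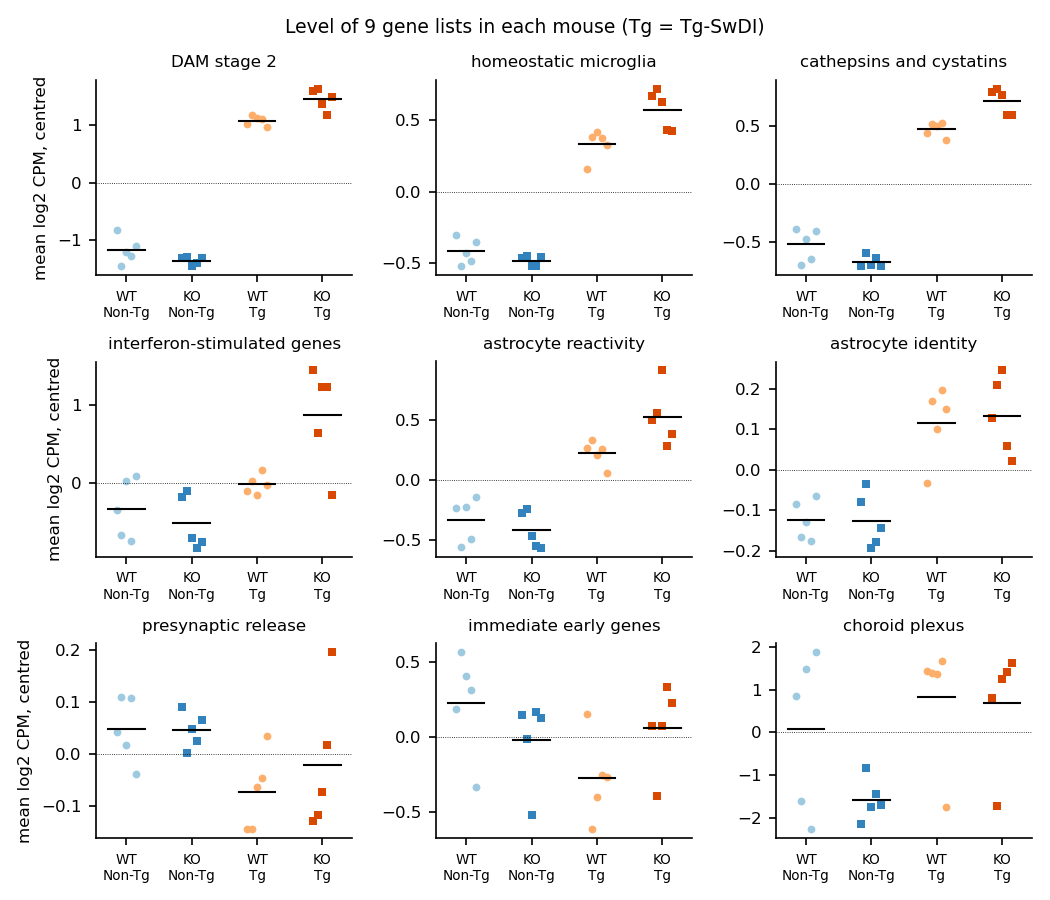
Level of 9 gene lists in each mouse, as the mean over members of log2(CPM + 0.5), each gene centred on its mean over the 20 mice, with a bar at the mean of each group of 5. Every Tg-SwDI mouse lies above every Non-Tg mouse for the second DAM stage (0.97 to 1.63 against -1.46 to -0.82), homeostatic microglia, cathepsins and astrocyte reactivity, while the arms overlap for interferon-stimulated, presynaptic, immediate early and choroid plexus genes.

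The genotypes differed in the size of the increase for some of the genes above. The 5 called genes with the smallest interaction p were Grn, Trem2, Ctsb, Gpx1 and Slc11a1, and in each the transgene effect was larger in KO mice. Grn (ENSMUSG00000034708.11, chr11:102430315-102437048) had 68.4, 58.1, 62.9, 59.8 and 61.2 CPM in the WT and 61.3, 63.9, 57.1, 54.5 and 54.5 CPM in the KO mice of the Non-Tg arm. In the Tg-SwDI arm it had 100.2, 108, 110.4, 120.0 and 110.4 CPM in the WT mice and 177, 175, 157, 140.4 and 145 CPM in the KO mice, so that every KO mouse stood above every WT mouse. The end of Grn overlaps Fam171a2, with which its reads may be split. The log2 fold change was 0.82 in WT and 1.45 in KO mice, a difference of 0.63 (SE 0.094, FDR 0.00861).

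Trem2 rose by 2.45 in WT and 3.23 in KO mice (difference 0.78, SE 0.13, FDR 0.0146). Ctsb, a cysteine protease of the lysosome, had 569.8 ± 12.4 (SD, n = 5) CPM in WT and 536 ± 16.3 CPM in KO mice without the transgene, and 758 ± 23.9 CPM in WT and 927 ± 57.9 CPM in KO mice with it (difference 0.38, SE 0.064, FDR 0.0146). Gpx1, glutathione peroxidase 1, had 36.4 ± 1.98, 33.5 ± 1.26, 40.1 ± 2.82 and 50.7 ± 2.73 CPM in the same order. It was called in KO mice (0.60, FDR 5.9e-09) and not in WT mice (0.14, FDR 0.199), with a difference of 0.46 (SE 0.078, FDR 0.0146). Slc11a1 had 3.62 ± 0.565, 2.34 ± 0.391, 14.3 ± 1.51 and 18.8 ± 2.90 CPM, with a difference of 1.02 (SE 0.18, FDR 0.0156), with the KO mean below the WT mean in Non-Tg mice and above it in Tg-SwDI mice. Gpx1 was thus the exception among these 5, since the other four rose in each genotype taken alone.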

How the data were processed

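Total RNA of the left hippocampus was sequenced as a stranded mRNA library from each of 20 mice. Reads were aligned by the authors to mm10 with STAR and counted per ENSEMBL gene with featureCounts, and the deposited table holds raw counts per gene for each mouse. Versions, strand setting and the handling of reads with several matches are not given in the sources used here. Gene names were taken from GENCODE M21 for 38872 of 39056 identifiers.

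Here the counts were filtered with filterByExpr (minimum count 10, minimum total 15), scaled with TMM and fitted with 4 group means (16 residual degrees of freedom) by the robust quasi-likelihood test of edgeR 4.0.16 in R 4.3.3. The transgene effect was the mean of both genotype contrasts, and genes were called at a Benjamini-Hochberg FDR under 0.05 over all 16107 genes. CPM values are counts scaled to the library total after its adjustment by the TMM factor. Standard errors are the absolute log2 fold change divided by the square root of its F statistic. On simulated counts, 98% of 100 genes changed by a log2 of 1, 94% of 100 changed by 0.5 and 13 of 15795 unchanged genes were called. The simulation drew independent counts, without differences in choroid plexus RNA or mitochondrial share between mice. Its rates therefore need not hold for the real libraries. The rule for named genes took Thy1 and App, the 10 largest increases and decreases without overlap between arms and with a mean of at least 1 CPM, 2 called members and 1 uncalled member of each list, 5 interaction genes and list members described by their role. Some of the genes it named are not reported here. The members of the 49 lists were chosen with earlier results of these data known. Alternatives were an additive fit, DESeq2 1.42.0, 2 other scalings, 2 other filters, a replicate block, a choroid plexus covariate, removal of a GC and length trend, a minimum log2 change of 0.1 and each mouse left out.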

Additional observations from a re-analysis of the deposited data

Results flagged for a closer look

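In 112 tests of single mice within groups of 5, chance would flag about 1 in 20. The mitochondrial share of miR-34a KO Tg-SwDI mouse 8 was 14.6%, against 8.11 to 8.76% in the other mice of its group. Itgax in WT Non-Tg mouse 2 was 2.51 CPM, against 0.248 to 0.811 CPM in the rest of the group. In KO Non-Tg mouse 4, Pdcd1 was 0.0965 CPM against 0.142 to 0.145 CPM, and Atp6v0d2 was 0.0483 CPM against 0, which is 1 count.

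The transgene effect differed between genotypes by the interaction test for 6 of the named genes, each with the larger increase in KO mice. The log2 difference was 2.14 for Clec7a (FDR 0.0461, 3.82 in WT and 5.96 in KO mice), 0.63 for Grn (FDR 0.00861), 0.78 for Trem2 (FDR 0.0146), 0.38 for Ctsb (FDR 0.0146), 0.46 for Gpx1 (FDR 0.0146) and 1.02 for Slc11a1 (FDR 0.0156).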

How the results depend on the processing

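All counts here come from the edgeR test unless DESeq2 is named, and each mouse was also left out in turn. Over the alternatives other than the choroid plexus covariate, all with 20 mice, between 2282 and 3132 genes were called for the average, against 2766. With the choroid plexus score as a covariate 1401 were called, 1205 higher and 196 lower, and 1376 of them were among the 2766. Leaving out 1 mouse gave 2212 to 3144 genes called, 1602 to 2035 higher and 610 to 1192 lower, and the 610 came without WT Non-Tg mouse 6. The share of higher genes among those called was 66.1%, and was 72.1% with the stricter filter, 56.1% with library size alone and 86.0% with the covariate. Genes called without overlap numbered 458 to 505 over the settings and 501 to 563 with a mouse left out, and genes called in each genotype 558 to 671 and 502 to 719. The 302 calls over the list members became 237 with the covariate and 280 to 321 with a mouse left out.

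The count of interaction genes moved most. It was 98, and was 482 with DESeq2, 59 with library size alone, 38 with the replicate block, 42 with the GC and length trend removed and 31 under the choroid plexus covariate. Among genes also called for the average it was 68, and in the same order, without library size alone, 282, 32, 37 and 25. Without KO Non-Tg mouse 7 these counts were 14 and 11, and without KO Tg-SwDI mouse 2 they were 500 and 260. Within that range the interaction count was 26, 170 and 36 without WT Non-Tg mice 2, 3 and 4, 43 and 51 without KO Non-Tg mice 4 and 8, 46, 64 and 31 without WT Tg-SwDI mice 3, 5 and 7, and 151, 64 and 209 without KO Tg-SwDI mice 1, 3 and 8. The cause was not tested. Mice of the same replicate number did not deviate together over 16 pairs (r from -0.45 to 0.17, median -0.04), and they were not treated as pairs. These correlations cannot show whether the numbers mark a litter, a cage or an order of processing. The replicate block gave 2282 genes called and 617 called in each genotype.

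Of 222 genes named, 170 kept their direction and their side of the threshold in every alternative. No called gene among them changed sign. The values that did change sign, all of uncalled genes, were -0.02 for Camk2a, -0.0 for Slco1a4 and -0.02 for Wfs1 with library size alone, -0.02 for Slco1a4 and -0.01 for Wfs1 with the replicate block, and -0.0 for Wfs1 with DESeq2 and with RLE factors. With the stricter filter they were 0.0 for Cd47 and 0.01 for Hspa8, and with the GC and length trend removed 0.0 for Cd47, 0.04 for Rora and 0.0 for Tef. With the covariate they were 0.03 for Cd47, 0.0 for Coro1a, -0.05 for Cp, -0.03 for Serpina3g, -0.03 for Slco1a4 and -0.0 for Wfs1. With a mouse left out, the log2 fold change ranged from -0.02 to 0.05 for Aplp1, -0.05 to 0.03 for Camk2a, -0.03 to 0.01 for Cd47, -0.03 to 0.0 for Coro1a, -0.05 to 0.01 for Cox4i1, -0.0 to 0.06 for Cplx2, -0.0 to 0.06 for Ctsf, -0.02 to 0.02 for Hspa8, -0.04 to 0.02 for Rora, -0.03 to 0.16 for Serpina3g, -0.02 to 0.05 for Slco1a4 and -0.02 to 0.04 for Wfs1. Called genes that lost the call in at least 1 setting with all mice included App, Timp2, Atp6v0a2, Atp6v1h, Cldn2, Prlr and Scg2, and the covariate ended 20 calls.

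Choroid plexus tissue differed between mice and moved with the arms, and its part in the smaller changes was not tested. The mitochondrial share of KO Tg-SwDI mouse 8 stood apart, and 3144 genes were called without it. For genes with few counts in Non-Tg mice, depth limits how well the size of the fold is known.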

Other observations

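Of the 498 genes called without overlap between arms, 365 were in no list, and the following were picked from them after their values were seen. They include immune receptors and signalling genes, with no count made of such groups. Siglecf, a sialic acid receptor, rose by a log2 of 2.96 (SE 0.16), Cd22, another of that family, by 2.77 (SE 0.16), Ly9, a SLAM family receptor, by 3.17 (SE 0.27), Gpr65, a proton-sensing receptor, by 3.07 (SE 0.16), Cnr2, the cannabinoid receptor CB2, by 2.41 (SE 0.20) and Cd180, a relative of the Toll-like receptors, by 2.29 (SE 0.12). Fgr, a kinase of the Src family, rose by 3.60 (SE 0.28) and Rgs1, a regulator of G-protein signalling, by 2.91 (SE 0.28).

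Also picked were genes of proteolysis outside the lysosome. They were St14, the membrane protease matriptase (3.24, SE 0.15), Plau, urokinase (2.28, SE 0.14), its receptor gene Plaur (2.58, SE 0.17), and Serpinf2, an antiplasmin (2.79, SE 0.20). Hpse, heparanase, an enzyme that cuts heparan sulfate, rose by 2.48 (SE 0.14). Genes with better known roles in other tissues were also among them, with Trpm1, a channel of retinal bipolar cells (3.69, SE 0.26), Olfr111, an olfactory receptor (3.72, SE 0.25), and Tgm1, a transglutaminase of skin (3.90, SE 0.23). Among the decreases, Slc12a5, the neuronal chloride transporter KCC2, fell by 0.19 (SE 0.032). Fam171a2 fell by 0.19 (SE 0.032) and overlaps Grn, so that its reads and those of Grn may be split by the counting.

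Ciart and Tmf1 were called in each genotype in opposite directions and cancelled in the average. Ciart, a repressor of the clock, had -0.31 in WT and 0.40 in KO mice (interaction FDR 0.0146), and Tmf1, a Golgi protein, 0.21 in WT and -0.17 in KO mice (interaction FDR 0.0345).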
